A study of Homo sapiens with 8 samples.

Results

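Plasma carriers, serpins and inter-alpha inhibitors are secreted proteins that hepatocytes release into the blood, and 31 genes for them were compared between 2D-primed and 3D-primed HepG2 cells. The 31 genes were taken as a list of names from the 38032 genes listed for each library, and 29 of them reached 10 counts in 2 or more of the 8 libraries. The other 2, BCHE and LECT2, were at 0 to 2 and at 0 to 3 counts in every library, and no difference was detectable at that depth. The next lowest genes, PON1 with 17 to 43 counts and ITIH4 with 26 to 59 counts, passed the filter.

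HepG2 is a cell line from a human hepatocellular carcinoma, without any introduced genetic change. In 4 libraries the cells had been grown for 8 days on flat, standard culture-ware (2D-primed), and in the other 4 on Alvetex Strata, a porous scaffold of inert polystyrene (3D-primed). Both groups were fed minimal essential medium with glutamine, non-essential amino acids and foetal bovine serum, and the cells were released with trypsin before polyadenylated RNA was sequenced. All libraries represent 1 carcinoma line in culture, and scaffolds were seeded at a high density, so substrate and starting density cannot be told apart. The labels number the replicates without saying whether they are separate cultures, and the p-values measure the spread between these libraries, which may be partly technical.

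Total counts ranged from 21599630 to 25019499 for 2D-primed and from 22153063 to 27844077 for 3D-primed libraries. Transcripts of mitochondrial DNA made up 1.40 to 1.81% of counts after 2D priming and 2.47 to 2.98% after 3D priming. The hepatocyte markers were all detected. Of 9 such markers 7 were higher in 3D-primed cells and 1 in 2D-primed cells, and their summed level was 60880 to 66950 CPM (counts scaled to a common library total with TMM factors) after 2D priming and 92200 to 103900 CPM after 3D priming. Of 6 cholangiocyte markers 4 were tested and all 4 were lower in 3D-primed cells (summed level 745 to 839 CPM after 2D priming and 421 to 449 CPM in 3D-primed). Among all genes tested, 32.4% were higher and 31.6% lower in 3D-primed cells. Endothelial markers summed to at most 8.14 CPM and stellate cell markers to at most 19.4 CPM in any library. Of 6 macrophage markers 3 had no count in any library and a single one was tested. Their sum was 71.9 to 74.4 CPM after 2D priming and 29.8 to 39.4 CPM after 3D priming. The largest value of any 1 of them was 74.35 CPM, beside a highest sum of 74.44 CPM. The sum thus describes 1 gene and is no measure of macrophages. The part of these shifts in the results below was not tested.

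Carriers such as transthyretin and retinol-binding protein keep hormones and vitamins soluble in plasma. Serpins are inhibitors that trap a protease by a large change of shape, although some members of the family carry hormones or release peptides instead. Inter-alpha inhibitors are assembled in the hepatocyte from heavy chains and a small inhibitor called bikunin, joined through a chondroitin sulfate chain, and they stabilise hyaluronan in the matrix. Many of these proteins belong to the acute-phase response, in which their liver output changes during inflammation.

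Of the 29 genes 24 (82.8%) passed the threshold of an adjusted p below 0.05 in edgeR's quasi-likelihood test with Benjamini-Hochberg adjustment over all 13943 genes tested, of which 63.9% passed. In 16 of them expression was higher in 3D-primed cells (32.4% of all genes) and in 8 it was higher in 2D-primed cells (31.6% of all genes). Among the 24 of the 29 genes with a mean of 10 CPM or more 20 passed (14 rose and 6 fell after 3D priming), beside 73.2% of all genes at that level (35.8% and 37.4%). The log2 fold change, written below as log2 change, is positive where the level was higher in 3D-primed cells. Of the 29 genes A1BG, SHBG, ITIH1 and CPN2 changed at least 2-fold and passed, beside 11.9% of all genes. The median log2 fold change of 3D-primed over 2D-primed cells was 0.20, against 0.01 for all genes, and the median size of the change was 0.49 against 0.34. The 4 values of one group lay entirely above those of the other for 22 genes (59.8% of all genes), 15 with 3D-primed higher (30.2% of all genes) and 7 with 2D-primed higher (29.5%). RNA was measured from whole cultures, so fewer cells expressing a gene and less RNA of it per cell cannot be told apart.

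**Figure D1:**
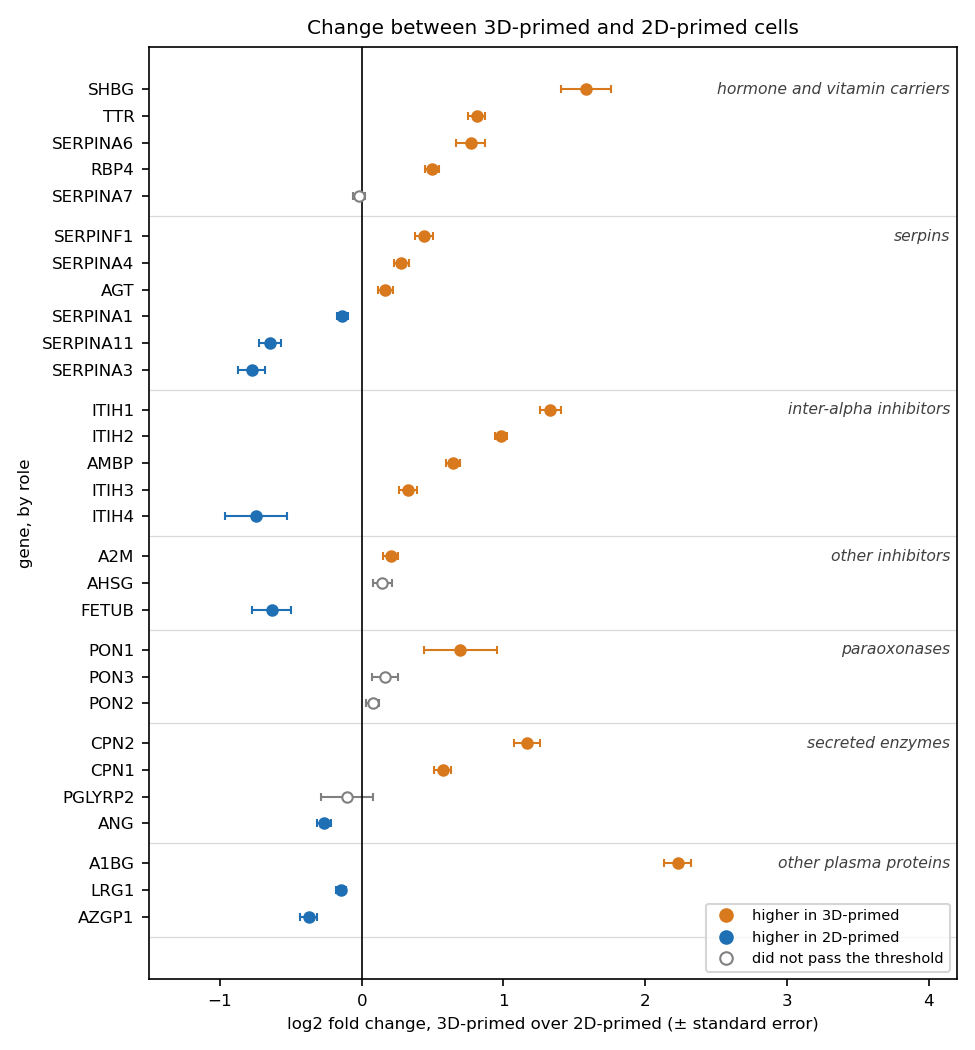
Log2 fold change of 3D-primed over 2D-primed cells (x axis) with its standard error for the 29 genes tested, grouped by role on the y axis. Filled points passed the threshold and open points did not. A1BG lies farthest to the right at 2.23 and SERPINA3 farthest to the left at -0.78.

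Together the 31 genes took 4.19 ± 0.0881% of all counts after 2D priming and 4.79 ± 0.111% after 3D priming (SD, n = 4 each). The 6 most abundant of them held 87.8 ± 0.314% of those counts after 2D priming and 88.4 ± 0.311% in 3D-primed cells. Per kilobase of the canonical transcript in the annotation, AHSG was the highest in both groups. It was at 5858 ± 289 CPM per kilobase after 2D priming and 6479 ± 624 in 3D-primed cells. SERPINA1, A2M and AMBP followed in both groups in that order, with levels in 3D-primed cells of 3251 ± 136, 2906 ± 222 and 2573 ± 117 CPM per kilobase. The ranges of A2M and AMBP overlapped in 3D-primed cells and were apart in 2D-primed cells. ITIH2 moved from the seventh place (530 ± 26.3 CPM per kilobase) to the fifth (1046 ± 36.3), while SERPINA3 moved from the fifth (963 ± 103) to the ninth (562 ± 71.1). Of the 30 pairs of neighbours in the order, 9 had overlapping ranges after 2D priming and 13 in 3D-primed cells.

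**Figure D2:**
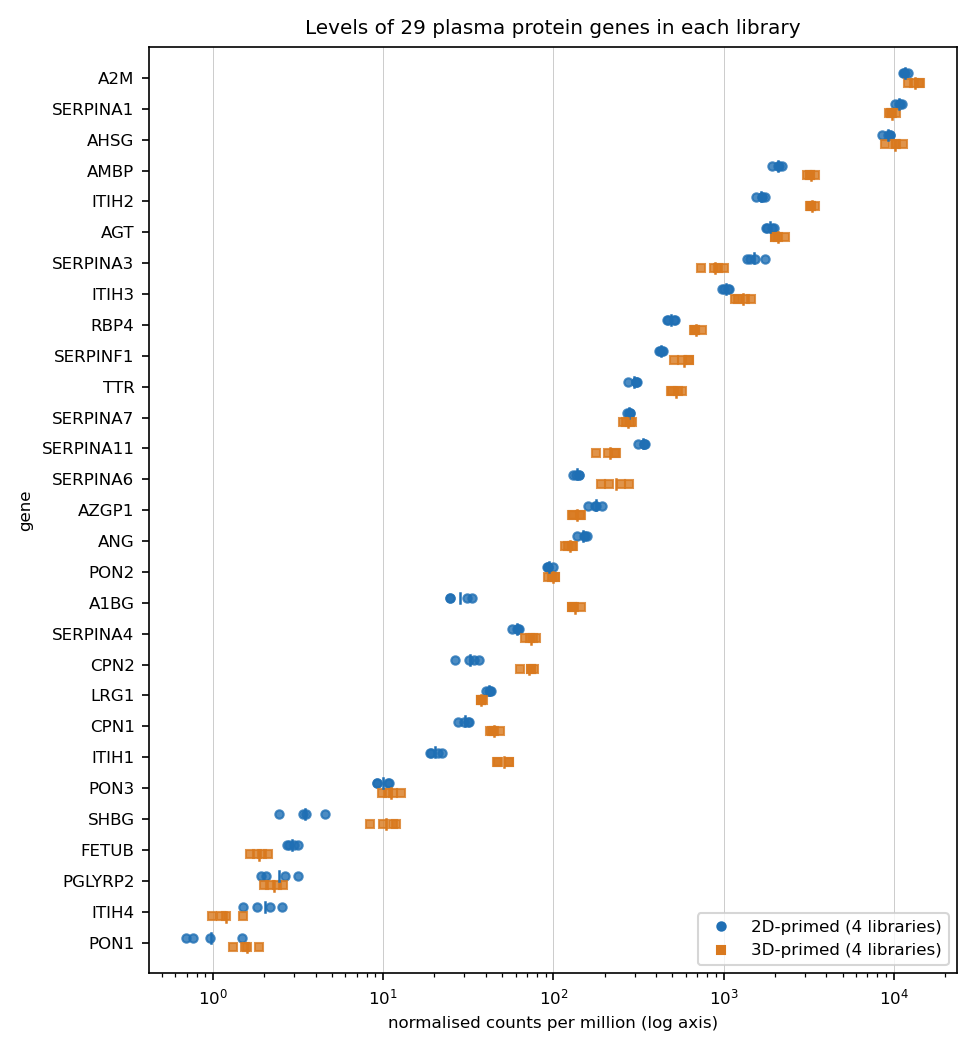
Normalised level in CPM (log axis) of each of the 29 genes in every library, 2D-primed as circles and 3D-primed as squares, with a vertical mark at each mean, ordered by mean level. The genes cover 4 orders of magnitude, from PON1 to A2M, and the gap between the groups is widest for A1BG.

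A1BG encodes alpha-1B-glycoprotein, a plasma protein of the immunoglobulin superfamily, and it had the largest change of the 29 genes. It was at 24.5, 30.9, 24.7 and 33.3 CPM in the 2D-primed libraries and at 128, 131, 145 and 129 CPM in the 3D-primed set. The lowest 3D-primed value was thus far above the highest 2D-primed value. The coefficient of variation was 15.6% in the 2D-primed and 5.84% in the 3D-primed group. The fold was 4.69, with a log2 change of 2.23 ± 0.10 (SE, adjusted p = 5.5e-08). Without any 1 library the log2 fold change stayed between 2.17 and 2.32.

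The promoter of A1BG is printed because this gene changed most. It comprises the 250 bases before the RefSeq transcript start (GRCh38.p14, chr19:58353493-58353742, minus strand), and capitals mark the match to the STAT motif TTCCNGGAA, at bases -68 to -60.
A1BG: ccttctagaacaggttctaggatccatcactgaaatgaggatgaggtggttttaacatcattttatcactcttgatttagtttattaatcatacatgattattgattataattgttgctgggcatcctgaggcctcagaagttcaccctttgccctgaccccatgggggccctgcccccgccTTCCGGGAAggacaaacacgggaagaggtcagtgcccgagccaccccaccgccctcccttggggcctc

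STAT3 is the factor through which interleukin-6 acts on acute-phase genes, and 2 other members matched the same motif within 250 bases before and 50 bases after a start. The surroundings of both matches are shown because AGT rose and LRG1 fell in 3D-primed cells, as described below. They lie at chr1:230714259-230714317 for AGT and chr19:4540165-4540223 for LRG1, both on the minus strand of GRCh38.p14, with the match in capitals.
AGT: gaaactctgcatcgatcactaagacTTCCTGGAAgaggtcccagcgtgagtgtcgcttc
LRG1: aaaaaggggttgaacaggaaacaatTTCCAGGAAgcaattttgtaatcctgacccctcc

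RefSeq promoter windows were at hand for 27 of the 31 genes, as 37 windows of 300 bases, beside 35116 windows of all genes. Each motif was searched on both strands. TTCCNGGAA was found in 8.11% of the 37 windows and in 1.15% of all windows, and the looser TTCNNNGAA, which every TTCCNGGAA also matches, in 21.6% and 7.66%. The FOXA motif, TGTTTAC or TGTTTGC, was found in 18.9% and 7.17%, the C/EBP motif TTGCNNAA in 13.5% and 10.5%, and the HNF4 motif CAAAGTCCA in 5.41% and 0.384%. The HNF1 motif GTTAATNAT was found in 2.70% and 0.792%, and GTTAAT, which it contains, in 16.2% and 6.88%. Some of these shares rest on few of the 37 windows, namely 3 for TTCCNGGAA, 2 for CAAAGTCCA and 1 for GTTAATNAT. Of the 27 genes 8 matched none of these motifs, and the acute-phase gene SERPINA3 was among them. A match describes letters only and is no evidence of binding.

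The hormone and vitamin carriers were 5 genes, of which 4 rose in 3D-primed cells and none fell, beside 32.4% and 31.6% of all genes. SHBG, the carrier of sex steroids, was at 2.43, 4.54, 3.38 and 3.50 CPM in the 2D-primed and at 11.4, 10.0, 8.32 and 11.95 CPM in the 3D-primed set. The groups did not overlap, and replicate 1 was the lowest of the 2D-primed libraries. Its mean rose 3.00-fold, from 3.46 ± 0.863 to 10.4 ± 1.61 CPM (log2 change 1.58 ± 0.18, adjusted p = 2.4e-05). SHBG lies on chromosome 17 across from FXR2 and SAT2, which overlap it on the opposite strand. The libraries were made with a strand-keeping kit, but whether the counting used strand is not given in the sources used here.

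TTR encodes transthyretin, which carries thyroxine and, bound to retinol-binding protein, vitamin A. Its level was 274, 308, 306.0 and 307 CPM in the 2D-primed and 568, 541, 498 and 489.0 CPM in the 3D-primed set, a 1.75-fold rise with no overlap. RBP4, the retinol-binding protein itself, was at 474, 516, 464 and 512 CPM in the 2D-primed and at 745, 671, 678 and 675 CPM in the 3D-primed set. The groups were apart again, and the rise was smaller, at 1.41-fold (log2 change 0.49 ± 0.05, adjusted p = 1.4e-05).

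TTR and RBP4 travel in plasma as a complex, and their ratio within a library does not depend on the scaling between libraries. Per unit of transcript length there were 0.948 ± 0.0532 counts of RBP4 for each count of TTR after 2D priming and 0.762 ± 0.0358 in 3D-primed cells (SD, n = 4 each). The ratio was between 0.872 and 0.997 in every 2D-primed and between 0.714 and 0.794 in every 3D-primed library. The difference was -0.32 on the log2 scale (exact permutation test, two-sided, p = 0.029, adjusted over 7 ratios p = 0.033). With 4 libraries against 4, 0.029 is the smallest p this test can give.

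SERPINA6 encodes the corticosteroid-binding globulin, a serpin that carries cortisol. It was at 135, 141, 130 and 141 CPM in the 2D-primed and at 280, 213, 189 and 250.2 CPM in the 3D-primed set. All 3D-primed values were above all 2D-primed values, and they were far more spread among themselves, with a coefficient of variation of 17.1% against 3.75%. The rise was 1.70-fold (log2 change 0.77 ± 0.10, adjusted p = 9.3e-05). SERPINA7, the thyroxine-binding globulin, is the other serpin among these carriers and binds thyroxine, as TTR does. Unlike TTR, it did not pass the threshold. Its level was 269 to 281 CPM after 2D priming and 255 to 289 CPM after 3D priming, with a log2 change of -0.02 ± 0.05 (adjusted p = 0.72), and the sign of that value turned with the scaling.

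The genes that act on the ligands of these carriers were read from 3 lists. For the handling of retinol 11 genes were tested, of which 3 rose and 2 fell in 3D-primed cells (median log2 fold change 0.10). With total counts 4 of the retinol genes rose, and with the upper quartile 5. Without 2D-primed replicate 2 or 3D-primed replicate 2 it was 4. Where 10 counts were required in all 8 libraries, 9 were tested and 2 rose (median -0.0255). Of 10 genes tested for thyroid hormone action 3 rose and 7 fell after 3D priming (median -0.29), beside 63.9% of all genes that passed in either direction. With total counts, with the upper quartile or without a filter 6 of them fell. Without 2D-primed replicate 2 or 3 it was 5, without 3D-primed replicate 3 it was 7 and without any other library 6. Of 11 genes of steroid receptors and steroid metabolism 2 rose and 3 fell (median -0.05). Beside these 3 lists, 32.4% of all genes rose and 31.6% fell.

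**Figure D3:**
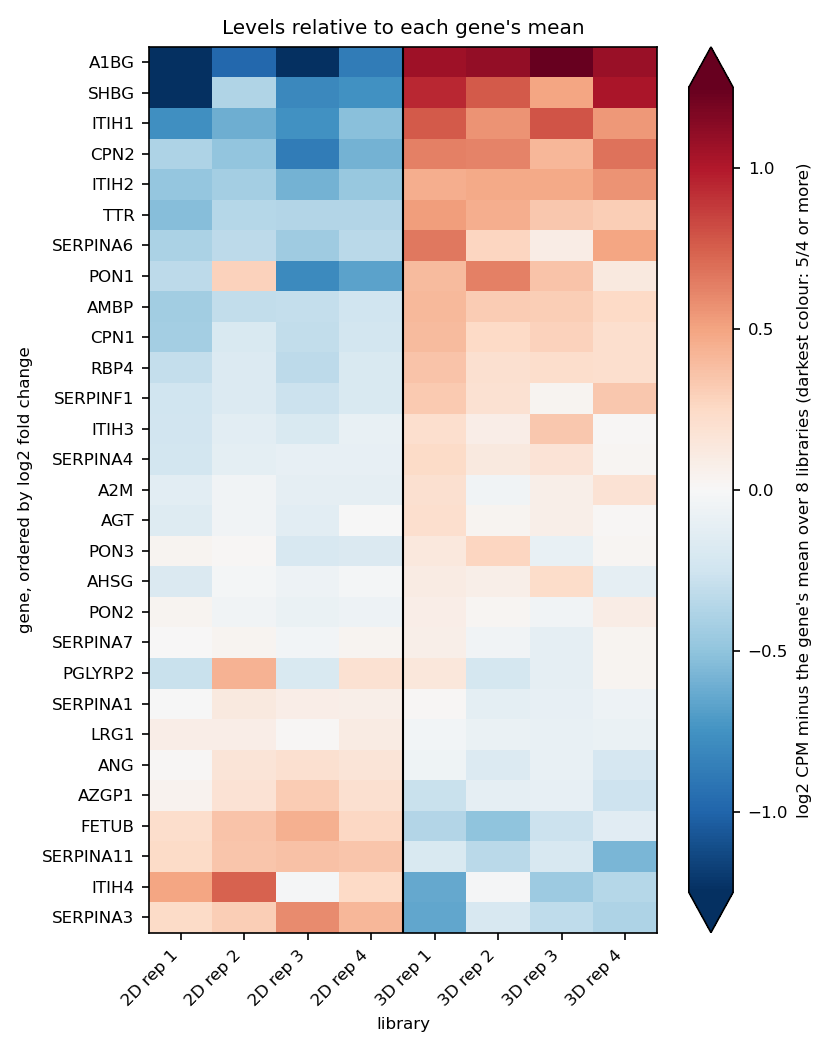
Log2 CPM of each gene (rows, ordered by log2 fold change) minus its mean over the 8 libraries (columns), from blue for below to red for above the mean, with the colour capped at either end. The rows from A1BG to SERPINA4, other than PON1, are blue in all 2D-primed and red or near white in all 3D-primed libraries, and SERPINA3 at the bottom shows the reverse.

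The inter-alpha inhibitor genes comprised 5 genes, 4 of which rose in 3D-primed cells while 1 fell, beside 32.4% and 31.6% of all genes. None of the 5 had overlapping groups in TMM-scaled CPM, and 59.8% of all genes were apart in the same way. For ITIH4 the margin was 1.506 against 1.505 CPM. Relative to total counts, its 3D-primed replicate 2 (34 of 22153063) was above its 2D-primed replicate 3 (37 of 25019499). AMBP encodes a precursor that is cut into alpha-1-microglobulin and bikunin, the light chain shared by the whole family. It was at 1926, 2092, 2112 and 2188 CPM in the 2D-primed and at 3446, 3236, 3219 and 3089 CPM in the 3D-primed set. All 3D-primed libraries were above all 2D-primed libraries, with a 1.56-fold rise (log2 change 0.64 ± 0.05, adjusted p = 1.5e-06).

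ITIH1 and ITIH2 encode the heavy chains that join bikunin in inter-alpha inhibitor. ITIH2 was at 1678, 1748, 1552 and 1689 CPM in the 2D-primed and at 3209, 3242, 3252 and 3460.0 CPM in the 3D-primed set. Its groups were narrow and apart, and it rose 1.98-fold (log2 change 0.98 ± 0.04, adjusted p = 7.2e-08). ITIH1 was much lower, at 18.8, 21.0, 19.0 and 22.2 CPM in the 2D-primed and at 54.6, 47.4, 55.1 and 46.8 CPM in the 3D-primed set. This was the larger rise of the pair, at 2.52-fold (log2 change 1.33 ± 0.08, adjusted p = 2.4e-07), again without overlap.

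ITIH3, the heavy chain of pre-alpha inhibitor, was at 977, 1054, 1010.0 and 1080.0 CPM in the 2D-primed and at 1330.0, 1220.0, 1452 and 1166 CPM in the 3D-primed set. The groups were apart by a small margin, and the rise was 1.25-fold (log2 change 0.33 ± 0.07, adjusted p = 0.0015). ITIH4 encodes a related chain that does not bind bikunin and is cleaved by plasma kallikrein. It was at 2.15, 2.55, 1.506 and 1.81 CPM in the 2D-primed and at 0.981, 1.505, 1.11 and 1.19 CPM in the 3D-primed set. The highest 3D-primed value was just under the lowest 2D-primed value, and the level was 1.68-fold higher in 2D-primed cells (log2 change -0.75 ± 0.22, adjusted p = 0.012), on no more than 59 counts in any library.

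The heavy chains also changed relative to bikunin within each library. Per unit of length, ITIH2 went from 0.322 ± 0.0246 to 0.408 ± 0.0313 counts for each count of AMBP, a difference of 0.34 on the log2 scale. ITIH1 went from 0.00424 ± 0.000231 to 0.00682 ± 0.000463 (difference 0.69), so that there were 237 ± 13.4 counts of AMBP for 1 of ITIH1 after 2D priming and 147 ± 9.72 in 3D-primed cells. ITIH3 went the other way, from 0.224 ± 0.00582 to 0.180 ± 0.0161 (difference -0.32). Each of the 3 ratios was apart between the groups (exact permutation test, two-sided, p = 0.029, adjusted p = 0.033). Per unit of length, AMBP exceeded each of the 3 heavy chains in every library. The call for ITIH3 to AMBP was lost without any 1 of the 4 2D-primed libraries (adjusted p = 0.067 without replicate 1, 3 or 4 and 0.057 without replicate 2).

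Heavy chains are attached to bikunin through chondroitin sulfate, and their transfer to hyaluronan needs TNFAIP6. In a list of 18 genes of the chondroitin linker and chain synthesis, ITIH5, ITIH6 and TNFAIP6, 14 were tested. Of these 4 rose and 7 fell in 3D-primed cells (median log2 fold change -0.17), beside 32.4% and 31.6% of all genes. ITIH6 had no count in any library. ITIH5, another gene of the heavy chain family, was singled out after its values were seen because it is the neighbour of ITIH2. It was at 22.7 to 25.4 CPM after 2D priming and at 9.88 to 14.1 CPM after 3D priming, a 2.07-fold higher level in 2D-primed cells (log2 change -1.05 ± 0.10, adjusted p = 7.2e-06).

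**Figure D4:**
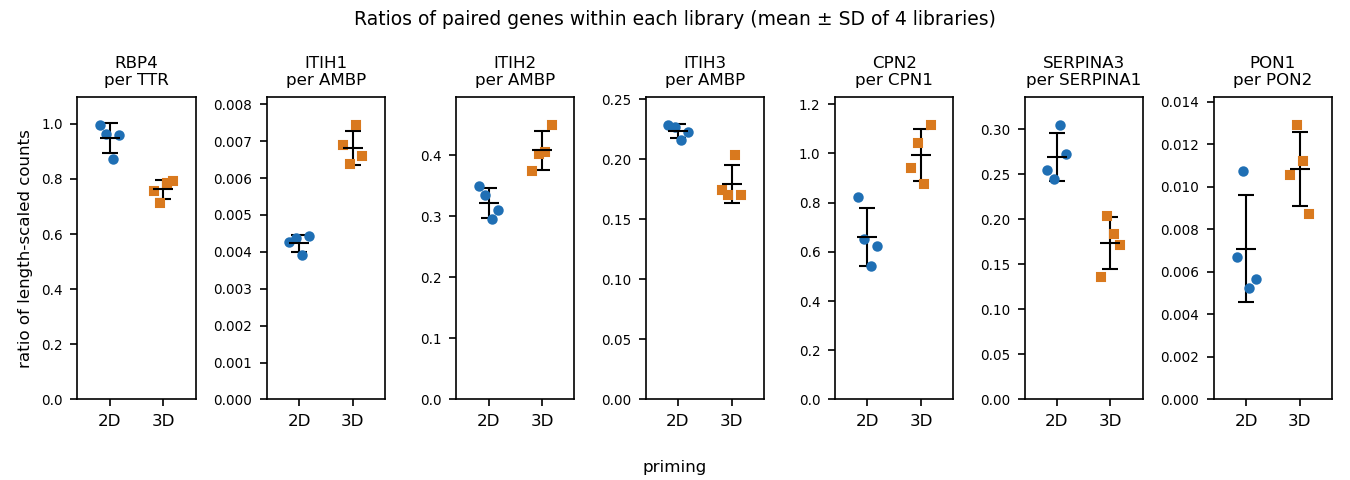
Ratio of length-scaled counts (y axis, starting at 0 and differing in range between panels) for 7 pairs of genes in each library, with the mean and SD of 4 libraries per group. The groups are apart in 6 panels and overlap for PON1 per PON2.

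The other serpins among the genes were 6, and all 6 passed the threshold, 3 in each direction. SERPINA3, alpha-1-antichymotrypsin, inhibits cathepsin G and is an acute-phase protein. It was at 1365, 1432, 1739 and 1536 CPM in the 2D-primed and at 735, 1002, 925 and 882 CPM in the 3D-primed set. Every 2D-primed library was above every 3D-primed library, and the level was 1.71-fold higher in 2D-primed cells (log2 change -0.78 ± 0.10, adjusted p = 5.7e-05).

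SERPINA11, a secreted serpin without a well known target, was at 315, 339, 344 and 340 CPM in the 2D-primed and at 234, 211, 231 and 179 CPM in the 3D-primed set. The groups were apart, with the spread larger among 3D-primed libraries, and the log2 fold change was -0.65 ± 0.08. SERPINA1 encodes alpha-1-antitrypsin, the main inhibitor of neutrophil elastase. It fell by 0.14 on the log2 scale (adjusted p = 0.011), from 10750 ± 395 to 9771 ± 407 CPM, and 3D-primed replicate 1, at 10320 CPM, was above 2D-primed replicate 1, at 10210 CPM. The call was lost without a filter on low counts (adjusted p = 0.13).

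The ratio of SERPINA3 to SERPINA1 per unit of length went from 0.269 ± 0.0264 in 2D-primed to 0.174 ± 0.0286 in 3D-primed cells (SD, n = 4 each). It was 0.245 or more in every 2D-primed and 0.204 or less in every 3D-primed library. The difference was -0.64 on the log2 scale (exact permutation test, two-sided, p = 0.029, adjusted p = 0.033).

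SERPINF1, the anti-angiogenic pigment epithelium-derived factor, rose 1.36-fold, from 415 to 443 CPM over the 2D-primed to 509 to 627 CPM over the 3D-primed libraries (log2 change 0.44 ± 0.06, adjusted p = 1.6e-04). SERPINA4 encodes kallistatin, an inhibitor of tissue kallikrein, and rose 1.21-fold, from 60.7 ± 2.62 to 73.7 ± 4.48 CPM (log2 change 0.28 ± 0.05, adjusted p = 7.9e-04). AGT, the precursor of the angiotensins, rose from 1864 ± 96.6 to 2094 ± 134 CPM (log2 change 0.17 ± 0.05, adjusted p = 0.019). Its groups were apart by little, with 1969 CPM as the highest 2D-primed and 1994 CPM as the lowest 3D-primed value, and the call was lost without 2D-primed replicate 1 (adjusted p = 0.054), 2D-primed replicate 3 (0.052) or 3D-primed replicate 1 (0.051). Of 9 other genes of the angiotensin system that were tested 3 rose and 4 fell (median log2 fold change -0.06), beside 32.4% and 31.6% of all genes.

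Of 28 serpin genes that are not among the 31 genes 14 were tested, of which 2 rose and 9 fell in 3D-primed cells (median log2 fold change -0.67). These counts were the same under the 3 other scalings, and 32.4% of all genes rose and 31.6% fell.

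SERPINA1, SERPINA3, SERPINA4, SERPINA6 and SERPINA11 lie with 5 further serpin genes in a cluster of 344 kb on chromosome 14. Along the chromosome, SERPINA10, an inhibitor of activated factor X, was at 21.1 ± 5.62 CPM after 2D priming and 26.0 ± 6.86 CPM in 3D-primed cells (adjusted p = 0.28), and SERPINA6 beside it rose. SERPINA1 and SERPINA11, the next genes with more than 3 counts, fell. SERPINA4 rose, SERPINA5, the protein C inhibitor, had a log2 change of -0.06 ± 0.04 (adjusted p = 0.19), and SERPINA3 at the end of the cluster fell. SERPINA2, SERPINA9 and SERPINA12 had at most 3, 6 and 5 counts in any library. SERPINA4 and SERPINA5 overlap on the same strand in the annotation, SERPINA5 having by far more counts, so the value of SERPINA4 depends on how reads were split between them and is uncertain.

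Stretches before the starts of SERPINA6, SERPINA1, SERPINA11 and SERPINA4 are shown because these neighbours moved in different directions. Capitals mark the FOXA motif in the first 3 (TGTTTAC or TGTTTGC) and the HNF1 motif GTTAATNAT in SERPINA4, all as written on the strand of the gene. SERPINA6 held a further FOXA match that is not shown. GTTAAT, the shorter HNF1 motif, was also found for SERPINA6, where it is left unmarked in the stretch, and for SERPINA1. In GRCh38.p14 they lie at chr14:94323455-94323511, chr14:94388679-94388735 and chr14:94452844-94452900 on the minus strand, and at chr14:94561342-94561400 on the plus strand.
SERPINA6: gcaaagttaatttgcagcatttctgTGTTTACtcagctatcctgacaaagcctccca
SERPINA1: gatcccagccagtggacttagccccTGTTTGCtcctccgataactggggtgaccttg
SERPINA11: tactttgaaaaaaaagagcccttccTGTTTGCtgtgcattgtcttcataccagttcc
SERPINA4: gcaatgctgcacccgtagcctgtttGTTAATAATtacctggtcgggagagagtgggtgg

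The FOXA motif was thus found beside a gene that rose and beside 2 that fell. Over all members with a window it was found in 3 of 12 that rose, 3 of 8 that fell and 1 of 5 that did not pass the threshold. The STAT motif TTCCNGGAA was found in 2 of 12, 1 of 8 and 0 of 5. The genes of 19 liver transcriptional regulators were read as a list, and 8 rose and 7 fell in 3D-primed cells (median log2 fold change 0.09). Of 17 genes of interleukin-6 and related signalling 4 rose and 9 fell (median -0.18). For both lists the shares of all genes were 32.4% and 31.6%.

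**Figure D5:**
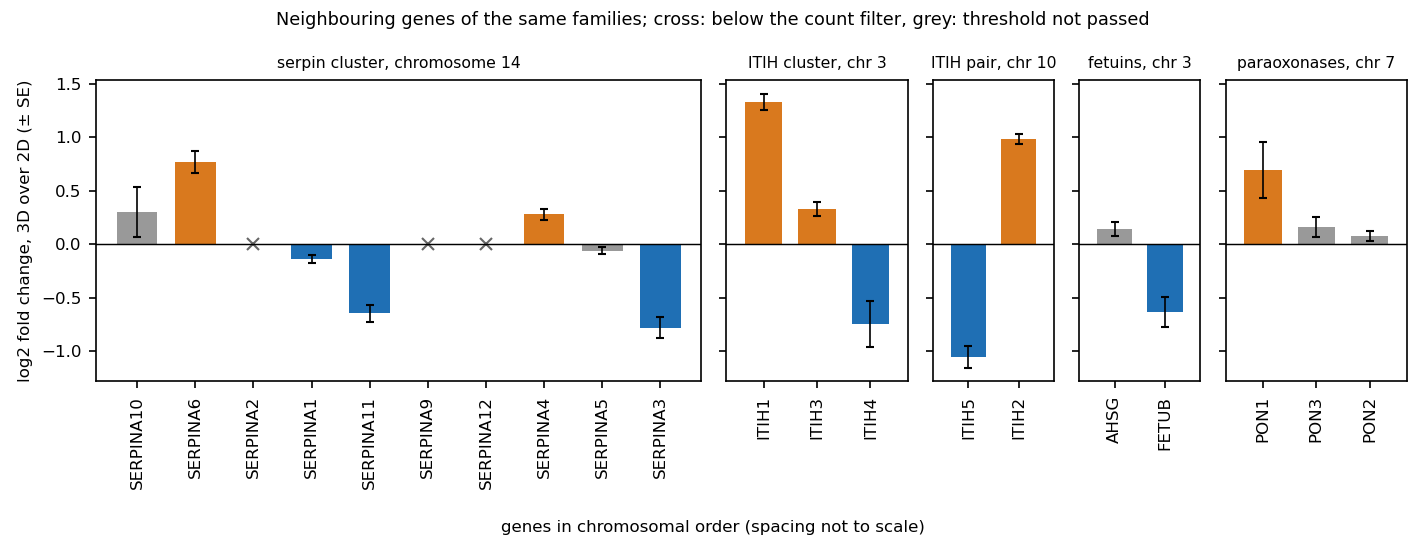
Log2 fold change of 3D-primed over 2D-primed cells (± SE, y axis) for neighbouring genes of 5 family clusters, in chromosomal order and not to scale (x axis). Orange bars rose and blue bars fell in 3D-primed cells, grey bars did not pass the threshold and crosses had too few counts. Bars above and below 0 stand side by side in the serpin, fetuin and both ITIH clusters, with the bar of AHSG in grey.

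ITIH1, ITIH3 and ITIH4 lie together within 53.1 kb on chromosome 3, with ITIH4 on the opposite strand. The first and second of them rose and ITIH4 fell. ITIH2 and ITIH5 lie 36.3 kb apart on chromosome 10, on opposite strands, and ITIH2 rose while ITIH5 fell.

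Of 3 other protease inhibitors A2M rose, FETUB fell and AHSG did not pass the threshold. A2M encodes alpha-2-macroglobulin, which traps proteases of every class in a cage. It had the most counts of the 31 genes and rose 1.15-fold, from 11620 ± 304 to 13400 ± 1022 CPM (log2 change 0.20 ± 0.05, adjusted p = 0.0054). Its groups were barely apart, at 12060 CPM for the highest 2D-primed and 12090 CPM for the lowest 3D-primed library.

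AHSG, fetuin-A, prevents the deposition of calcium phosphate, and FETUB encodes fetuin-B, an inhibitor of astacin proteases. They are neighbours on chromosome 3, 14.7 kb apart. AHSG was at 9220 ± 454 CPM after 2D priming and 10200 ± 983 CPM in 3D-primed cells with overlapping groups (log2 change 0.15 ± 0.07, adjusted p = 0.077). It passed the threshold without 3D-primed replicate 4, its lowest 3D-primed library (adjusted p = 0.0057), and with total counts (0.023) or the upper quartile (0.022) as the scaling. FETUB was at 2.70 to 3.17 CPM after 2D priming and at 1.64 to 2.11 CPM after 3D priming, 1.55-fold higher in 2D-primed cells (log2 change -0.63 ± 0.14, adjusted p = 0.0023). Per kilobase, AHSG was the most abundant of the 31 genes and FETUB one of the least abundant, at 1.69 ± 0.123 and 1.09 ± 0.115 CPM per kilobase after 2D priming and 3D-primed cells.

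The paraoxonases hydrolyse lactones and oxidised lipids. PON1 and PON3 are carried on HDL and PON2 stays in the cell, and their 3 genes lie within 138 kb on chromosome 7. PON1 was at 0.962, 1.47, 0.692 and 0.760 CPM in the 2D-primed and at 1.58, 1.86, 1.54 and 1.31 CPM in the 3D-primed set. Replicate 2 of the 2D-primed cells reached into the 3D-primed range. The log2 fold change was 0.70 ± 0.26 (adjusted p = 0.037), and the call was lost in DESeq2 (adjusted p = 0.052) and in each of 6 fits without 1 library, namely without 2D-primed replicate 1 (0.067), 3 (0.097) or 4 (0.093) or without 3D-primed replicate 1 (0.068), 2 (0.093) or 3 (0.060).

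PON2 was at 93.9 ± 3.51 CPM after 2D priming and 99.0 ± 4.30 CPM in 3D-primed cells (log2 change 0.08 ± 0.04, adjusted p = 0.15). PON3 was at 9.95 ± 0.869 and 11.2 ± 1.19 CPM (log2 change 0.17 ± 0.09, adjusted p = 0.14). The groups overlapped for both genes. For each count of PON2 there were 0.00710 ± 0.00251 counts of PON1 per unit of length after 2D priming and 0.0109 ± 0.00174 in 3D-primed cells, a difference of 0.66 on the log2 scale that did not pass the threshold (exact permutation test, two-sided, p = 0.086, adjusted p = 0.086).

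Among the secreted enzymes both subunits of carboxypeptidase N, which removes C-terminal basic residues from kinins and anaphylatoxins, rose in 3D-primed cells. CPN2, the regulatory subunit, was at 36.7, 34.1, 26.3 and 31.8 CPM in the 2D-primed and at 74.0, 73.8, 64.0 and 77.0 CPM in the 3D-primed set. It rose 2.24-fold with no overlap (log2 change 1.17 ± 0.09, adjusted p = 2.5e-06). CPN1, the catalytic subunit, rose 1.49-fold, from 30.1 ± 2.11 to 44.7 ± 2.60 CPM (log2 change 0.57 ± 0.06, adjusted p = 1.5e-05).

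Per unit of length there were 0.660 ± 0.118 counts of CPN2 for each count of CPN1 after 2D priming and 0.994 ± 0.106 in 3D-primed cells, a difference of 0.60 on the log2 scale (exact permutation test, two-sided, p = 0.029, adjusted p = 0.033). The 2D-primed libraries ran from 0.543 to 0.823 and the 3D-primed libraries lay at 0.877 or above. By this length-scaled measure CPN1 was above CPN2 in every 2D-primed library. The call was lost without any 1 of the 4 3D-primed libraries (adjusted p = 0.067 each).

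ANG, the ribonuclease angiogenin, fell by 0.27 on the log2 scale, from 150 ± 8.39 to 124 ± 6.10 CPM (adjusted p = 0.0011). It shares its first exons with RNASE4, another secreted ribonuclease, on the same strand. A further protein-coding gene overlaps ANG on that strand, with 1230 to 1570 counts per library, beside 2741 to 3852 for ANG. The split of reads between these genes is uncertain. RNASE4 fell too, from 267 ± 23.6 to 167 ± 12.1 CPM (log2 change -0.68 ± 0.07, adjusted p = 1.4e-05). PGLYRP2, an amidase that cleaves bacterial peptidoglycan, was at 1.92 to 3.16 CPM after 2D priming and 1.99 to 2.57 CPM after 3D priming (log2 change -0.10 ± 0.19, adjusted p = 0.65). BCHE, butyrylcholinesterase, was below the count filter, as was LECT2, a chemotactic factor from the liver.

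AZGP1, zinc-alpha-2-glycoprotein, which promotes lipid mobilisation, was 1.30-fold higher in 2D-primed than in 3D-primed cells, with means of 177 ± 13.4 and 137 ± 8.64 CPM (log2 change -0.37 ± 0.06, adjusted p = 4.1e-04). LRG1 encodes leucine-rich alpha-2-glycoprotein, an acute-phase protein that modulates TGF-beta signalling. It was at 40.2 to 42.7 CPM after 2D priming and at 37.3 to 38.7 CPM after 3D priming, a small but separate difference (log2 change -0.15 ± 0.04, adjusted p = 0.0045).

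Read by their behaviour in inflammation, 7 of the genes (SERPINA1, SERPINA3, LRG1, ITIH3, ITIH4, AGT and A2M) were listed as positive acute-phase genes, although A2M is one in rodents rather than in humans. Of these 3 rose and 4 fell in 3D-primed cells, with a median log2 fold change of -0.14. It was 2 and 3 with a replicate block and 3 and 3 without a filter. Without 1 library 2 or 3 rose and 4 fell. A second list held 8 genes whose products decline in inflammation (TTR, RBP4, AHSG, ITIH2, AMBP, SERPINA4, SERPINA6 and PON1), and 7 of them rose and none fell, with a median of 0.67. The one without a call was AHSG. In DESeq2 6 of these 8 genes rose, and with total counts or the upper quartile all 8. Without 1 library it was 6 to 8, and none fell under any alternative. All genes had a median of 0.01 with 32.4% rising and 31.6% falling, and the counts of both lists were made with results of these data known.

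Coagulation and complement factors are further plasma proteins made by the liver. Of 24 coagulation genes 15 rose and 3 fell in 3D-primed cells (median log2 fold change 0.37), and of 21 complement genes 11 rose and 6 fell (median 0.14). The shares among all genes were 32.4% rising and 31.6% falling. ALB, the gene of albumin and the most abundant hepatocyte marker, was at 24630 to 27680 CPM after 2D priming and 40920 to 48980 CPM after 3D priming, a 1.67-fold rise (adjusted p = 1.9e-06). The fold estimates of A1BG, SHBG, ITIH1, CPN2, ITIH2, TTR and SERPINA6 were larger than that of ALB and those of the other 9 genes that rose were smaller, and these differences between genes were not tested.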

How the data were processed

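Polyadenylated RNA of 4 2D-primed and 4 3D-primed HepG2 libraries was sequenced in read pairs. The authors obtained estimated counts per gene with Salmon on human GRCh38 cDNA and tximport, and deposited them as 1 file per library. They were used rounded to whole numbers, and whether tximport corrected them for transcript length is not given in the sources used here. Identifiers were matched to GENCODE symbols for 92.0% of 38032 genes (97.5% of counts).

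The 13943 genes reaching 10 counts in 2 or more libraries were fitted with edgeR 4.0.16 in R 4.3.3 (TMM, glmQLFit, glmQLFTest), and p was adjusted by Benjamini-Hochberg at 0.05. CPM are TMM-scaled. Ratios of genes used counts plus 0.5 and exact permutation tests. Within groups the chi-square per degree of freedom between libraries was 6.34 to 17.4, so none were duplicates. The scripts were tested on simulated data. Same-numbered libraries did not deviate together. Alternatives were DESeq2 1.42.0, limma-voom (limma 3.58.1), other scalings and filters, a replicate block and leaving out each library. All 31 members were named, with genes of the same clusters. The members and the lists were chosen with earlier results of these data known. Tables were made in Python 3.11.15.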

Additional observations from a re-analysis of the deposited data

Results flagged for a closer look

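In 4 of the 58 groups of 4 libraries that were examined, 1 library stood apart from the other 3 by Dixon's criterion, where about 1 in 20 groups, or 2.9, is flagged by chance. For TTR, 2D-primed replicate 1 was the lowest at 273.6 CPM, against 306.0 to 308.2 CPM in the others. For SERPINA4, 2D-primed replicate 1 was the lowest at 56.82 CPM, against 61.47 to 62.37 CPM in the others. For RBP4, 3D-primed replicate 1 was the highest at 745.3 CPM, against 670.7 to 678.4 CPM in the others. For LRG1, 3D-primed replicate 1 was the highest at 38.71 CPM, against 37.28 to 37.46 CPM in the others. Without 1 library in turn, the log2 fold change of TTR ran from 0.76 to 0.84, of SERPINA4 from 0.24 to 0.32, of RBP4 from 0.45 to 0.52 and of LRG1 from -0.17 to -0.14.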

How the results depend on the processing

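The counts of members called, in either direction, stayed within 1.5 times the reported ones under all 17 alternatives, and 22 to 24 of the 24 calls were kept. PON1, AGT and SERPINA1 lost their call under some of them. AHSG gained one with total counts, with the upper quartile and without 3D-primed replicate 4, and PON2 with the upper quartile (adjusted p = 0.030). SERPINA7, which was not called, changed sign to 0.0084 with total counts and 0.03 with the upper quartile, and ran from -0.053 to 0.0046 (without 3D-primed replicate 3) over the fits without 1 library, as PGLYRP2, also not called, ran from -0.20 to 0.042 (without 2D-primed replicate 2). Scaling moved the median of all genes to at most 0.06.

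The replicate numbers did not pair the libraries (correlations of deviations -0.0439, -0.0146, 0.088 and -0.00625). A replicate block kept 22 of the 24 calls, with AGT at an adjusted p of 0.059 and SERPINA1 at 0.057. For the ratios a paired exact test over 4 pairs cannot go below p = 0.125, so the adjusted p was 0.12 for RBP4 to TTR (-0.32), ITIH1 to AMBP (0.69), ITIH2 to AMBP (0.34), ITIH3 to AMBP (-0.32), CPN2 to CPN1 (0.60) and SERPINA3 to SERPINA1 (-0.64). Without 1 library the ratio of ITIH3 to AMBP lost its call for each 2D-primed library left out (all 8 such fits -0.38 to -0.30), that of CPN2 to CPN1 for each 3D-primed one (all 8, 0.51 to 0.71), and that of PON1 to PON2 passed without 2D-primed replicate 2 (0.88, the highest of 0.53 to 0.88).

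The lowest genes limit what can be seen: PON1, ITIH4, PGLYRP2 and FETUB had fewer than 80 counts in each library, and BCHE and LECT2 were not testable. SHBG, SERPINA4 and ANG overlap other genes. All libraries are from 1 cell line.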
